A study of Mus musculus with 16 samples.

Results

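The genes described here were 10 inflammatory mediators, most of them cytokines of the IL-1 and IL-6 families: Il1a, Il1b, Il1rn, Il1r2, Il6, Il11, Lif, Osm, Tnf and Il10. They were taken by gene symbol, and the array carried 17 features for them, among 43941 features of 24306 genes with a symbol. Lung RNA was measured in 16 mice of 8 weeks, 1 single-colour Agilent array per mouse, in 4 groups of 4 formed by genotype (WT or Fra-2 TG) and sex. The TG mice carried the Fra-2 transgene as tg/wt and WT littermates served as controls. All came from a mixed BL6CBA background crossed back to C57BL6/J, were kept under SPF conditions and gave the right lung, snap-frozen and homogenized whole. The promoter that drives the transgene is not given in the sources used here, and Fra-2 was overexpressed ectopically, so that differences can come from lung tissue or from immune cells within it. In such whole-tissue RNA, fewer cells of a type and less RNA per cell cannot be told apart.

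The IL-1 ligands bind a shared receptor that signals through MyD88 to NF-κB. Il1rn encodes the antagonist that occupies that receptor without activating it, and Il1r2 encodes a decoy receptor that captures the ligands. IL-6, IL-11, LIF and oncostatin M share the receptor chain gp130, encoded by Il6st, which signals through JAK kinases to STAT3. TNF acts through 2 receptors of its own to NF-κB, and IL-10, a cytokine outside both families, dampens macrophages. Fra-2, encoded by Fosl2, is a Fos protein of the AP-1 transcription factors, which pair with Jun proteins and bind a palindrome of 7 bases, and several of these cytokine genes are known AP-1 targets.

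Because Fra-2 is a factor of that site, the AP-1 sequence TGAGTCA, or its reverse complement TGACTCA, was searched in the 250 bases before the start of an annotated transcript. At least 1 window was on hand for 8 of the 10 genes, with 3 for Il1rn, 2 for Il11 and 1 for each other gene. A gene was counted if any of its windows held a match, which 5 of the 8 did, against 5.16% of 27025 genes with a window. The matches of Il1rn and Il11 were each in 1 of their windows. Several of these genes were already known as AP-1 targets, so that the share describes the list and is not a test. The stretches of 100 bases with the matches are shown 5′ to 3′ on the strand of the gene, with the match in capitals (RefSeq, GRCm38.p6, coordinates of the stretch).
Il1rn, chr2:24336673-24336772, plus strand, match from 141 to 135 bases before the start: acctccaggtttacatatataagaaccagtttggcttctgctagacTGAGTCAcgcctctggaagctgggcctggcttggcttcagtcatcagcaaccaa
Il1a, chr2:129309973-129310072, minus strand, match from 12 to 6 bases before the start: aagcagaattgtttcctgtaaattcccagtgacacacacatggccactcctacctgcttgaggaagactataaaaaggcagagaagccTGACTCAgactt
Il6, chr5:30012864-30012963, plus strand, match from 249 to 243 bases before the start: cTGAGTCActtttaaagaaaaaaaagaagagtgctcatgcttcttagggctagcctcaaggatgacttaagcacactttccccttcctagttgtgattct
Il11, chr7:4778186-4778285, minus strand, match from 98 to 92 bases before the start: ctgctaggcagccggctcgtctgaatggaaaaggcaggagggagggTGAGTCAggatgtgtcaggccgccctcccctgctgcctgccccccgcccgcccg
Lif, chr11:4257318-4257417, plus strand, match from 228 to 222 bases before the start: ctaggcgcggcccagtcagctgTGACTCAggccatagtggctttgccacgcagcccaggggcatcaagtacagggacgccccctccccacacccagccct

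The stretches of Il1a and Il11 lie inside the annotated extent of their genes, since a longer transcript of each starts further upstream. The whole window of Il1r2 likewise lies inside the annotated extent of its gene. No AP-1 match was found in the windows of Il1b, Il1r2 and Tnf. The CRE sequence TGACGTCA was in no window of the 8 genes (1.77% of all genes with a window held it), and the STAT sequence TTCNNNGAA was in that of Il1r2 alone (8.13% of genes). The NF-κB motif was in the Il6 window alone, from 44 to 35 bases before the start (5.67% of genes). Both strands were searched, and no match overlapped another. A match is a run of letters, and no binding was measured in these lungs.

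Of the 10 genes, 4 were lower in TG than in WT lungs and none was higher at an adjusted p under 0.05 (limma, adjusted over all 24306 genes). The 4 were both IL-1 ligands, Il1a and Il1b, their antagonist Il1rn, and Osm of the IL-6 family. Over all genes 7.08% were lower and 6.05% higher by the same rule. At an unadjusted p under 0.05, 7 of the 10 were lower, against 15.9% of all genes, and 1, Lif, was higher, against 12.2% of all genes. By sign alone 8 of the genes lay below 0 and 2 above, with a median log2 difference of -0.95, while the median over all genes was -0.03 and 53.4% of them lay below 0. No member separated all TG from all WT mice, which 1.75% of all genes did. Differences below are TG minus WT on the log2 scale, with the SE of the fit, and levels are the deposited log2 values of the brightest feature of each gene, which do not compare between genes.

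**Figure D1:**
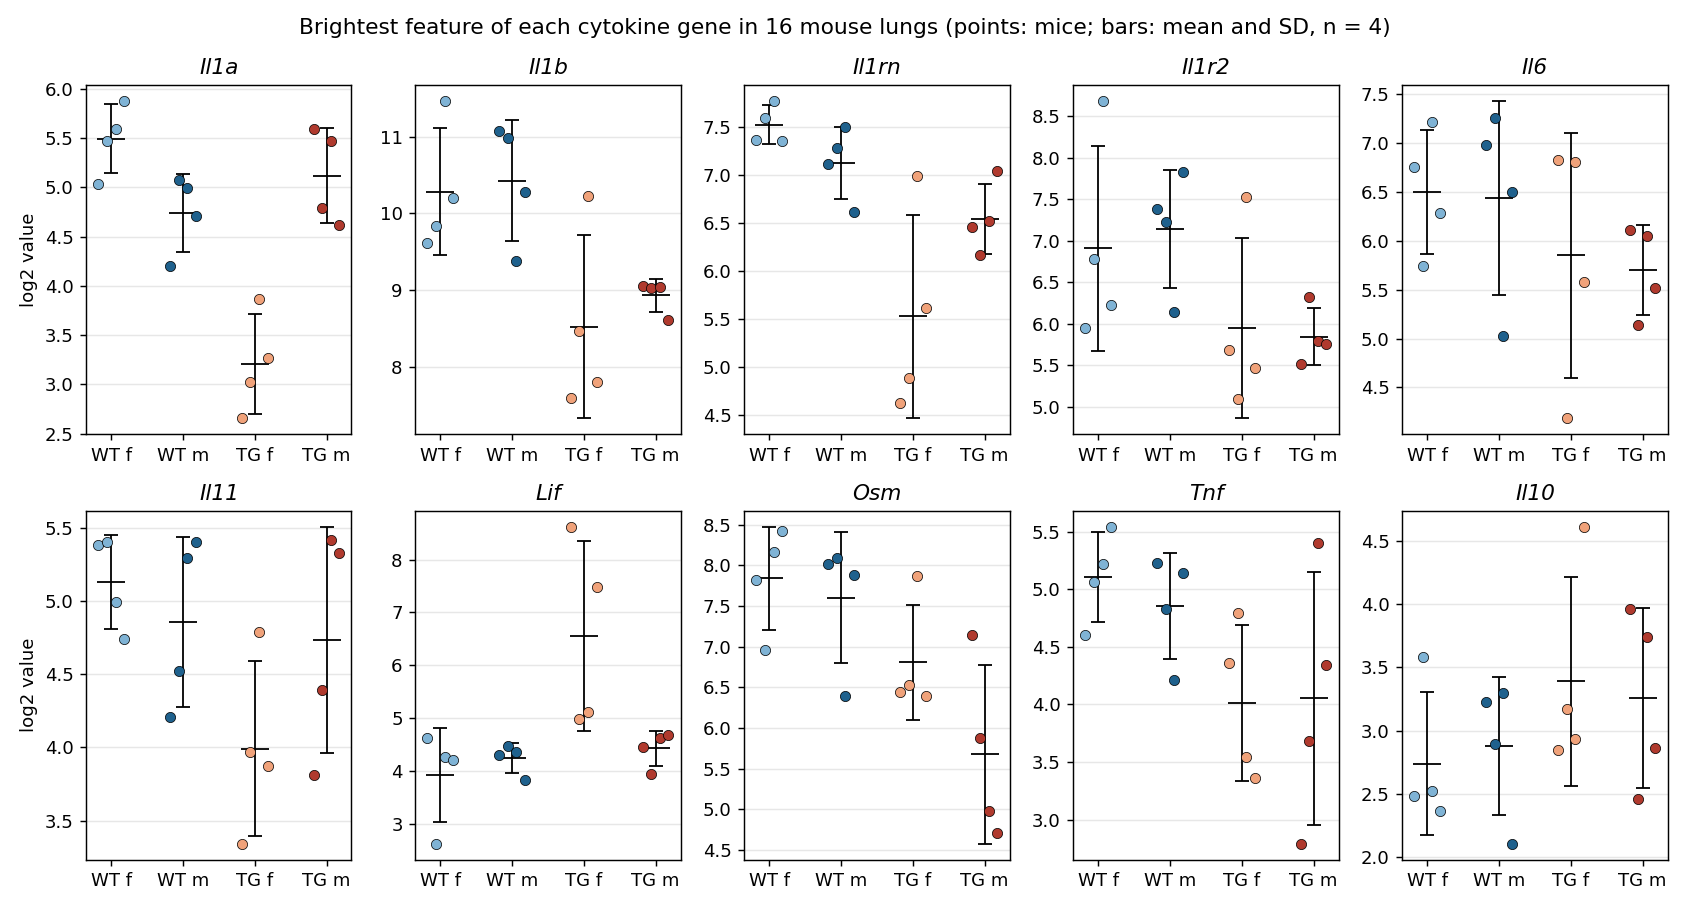
Log2 value of the brightest feature of each of the 10 genes (vertical axes, each with its own range) in WT females, WT males, TG females and TG males (horizontal axis); points are mice, bars the mean and SD of 4. Il1a was low in TG females only, Il1b was lower in all but 1 TG mouse than in every WT mouse, and Lif was high in TG females.

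Il1a encodes IL-1α, the ligand that dying cells can release as an alarm signal. Its log2 value was 5.04, 5.47, 5.60 and 5.88 in WT females and 2.66, 3.02, 3.87 and 3.27 in TG females. It was 4.20, 5.07, 4.99 and 4.71 in WT males and 5.59, 4.79, 5.47 and 4.62 in TG males. All TG females thus lay below every other mouse of the study, while TG males lay within the range of the WT mice. Il1a had 1 feature, was among the dimmest 50% of genes, and the lowest value on any array was 1.77. The difference over both sexes was -0.96 ± 0.21 (SE, adjusted p = 0.00879, limma). Within females it was -2.29 ± 0.29 (adjusted p = 0.000558, limma) and within males 0.38 ± 0.29 (adjusted p = 0.745, limma). The effect in females minus that in males was -2.67, with an unadjusted p of 1.14e-05 and an adjusted p of 0.138 (limma), so that it did not pass over all genes. With the genotype alone in the model Il1a did not pass (adjusted p = 0.133, limma), nor in the exact Wilcoxon test (adjusted p = 0.210).

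Il1b encodes IL-1β, which macrophages and neutrophils make as an inactive precursor. Its brightest feature stood at 9.62, 9.84, 11.47 and 10.20 in WT females and at 11.08, 10.98, 9.38 and 10.28 in WT males. It stood at 7.60, 8.47, 10.22 and 7.81 in TG females and at 9.05, 9.03, 9.04 and 8.61 in TG males. In 7 of the 8 TG mice Il1b was below every WT mouse, and the exception, TG female 3, lay amid the WT values. The WT mean was 10.35 ± 0.75 (SD, n = 8) and the TG mean 8.73 ± 0.82 (SD, n = 8), a difference of -1.63 ± 0.38 (SE, adjusted p = 0.0126, limma). By sex it was -1.75 in females (adjusted p = 0.0378, limma) and -1.50 in males (adjusted p = 0.315, limma), and the difference of these effects was -0.26 (adjusted p = 0.908, limma). The call in females was lost when females were fitted alone, and without WT female 2, 3 or 4 or TG female 1, 2 or 4. TG males were all below WT males and spanned a narrow range.

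The array held 2 further features for Il1b. The second was at 8.26, 8.06, 9.94 and 8.71 in WT females, 8.33, 9.21, 7.60 and 8.65 in WT males, 4.12, 4.998, 8.11 and 5.26 in TG females and 6.67, 6.93, 6.56 and 6.75 in TG males. Here too TG female 3 alone of the TG mice lay amid the WT values. The dimmer features fell from 8.60 to 6.18 (difference -2.42, adjusted p = 0.00452 over all features, limma) and from 7.03 to 5.92 (difference -1.11, adjusted p = 0.0461). All 3 Il1b features were therefore lower in TG lungs, by amounts that differed. A feature for Il1bos, a transcript from the strand opposite Il1b, had a mean of 2.80 in WT against 2.92 in TG lungs (adjusted p = 0.713, limma).

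Il1rn, the receptor antagonist, was at 7.36, 7.60, 7.77 and 7.36 in WT females and at 7.11, 7.29, 7.50 and 6.62 in WT males. TG females had 4.62, 4.88, 6.99 and 5.61 and TG males 6.45, 6.16, 6.53 and 7.04. The TG females spread widely, with TG female 3 again the highest of them, yet all 4 lay below every WT female, and TG males overlapped WT males. Il1rn thus moved in the same direction as the ligands it opposes. The difference was -1.29 ± 0.28 (SE, adjusted p = 0.00827, limma), and it passed in all 25 alternative settings tried. In females it was -1.998 (adjusted p = 0.00548, limma) and in males -0.58 (adjusted p = 0.687, limma), and the effects differed by -1.42 (unadjusted p = 0.0217, adjusted p = 0.331, limma). The dimmer Il1rn feature also fell, from 3.98 to 3.28 (difference -0.69, adjusted p = 0.0311, limma).

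Il1r2, the decoy receptor, did not pass. WT females had 5.95, 6.78, 8.68 and 6.23 and WT males 7.38, 7.23, 6.15 and 7.83. TG females had 5.69, 5.10, 7.53 and 5.47 and TG males 5.52, 6.32, 5.80 and 5.75. All TG mice but TG female 3 were at or under 6.32, where the WT mice had only their lowest values, and the genotypes overlapped. The difference was -1.13 ± 0.41 (SE, adjusted p = 0.0844, limma), with values of -0.96 in females and -1.30 in males. Without TG female 3 the adjusted p was 0.0186. The dimmer feature had a difference of -0.71 (adjusted p = 0.211, limma).

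**Figure D2:**
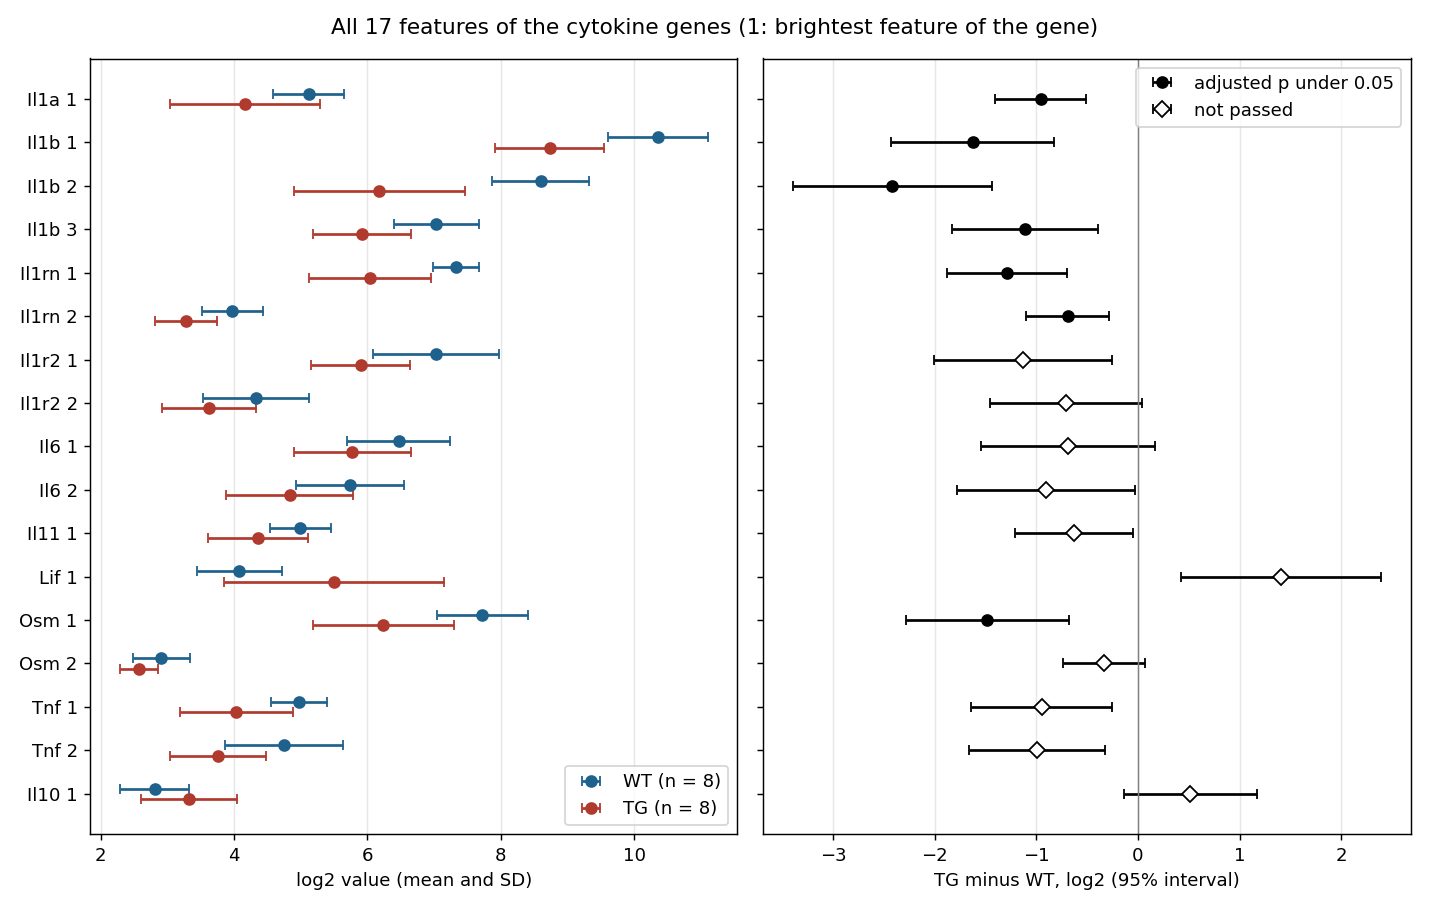
All 17 features of the 10 genes, numbered from the brightest of each gene: on the left the mean and SD of the log2 value in WT and TG lungs (8 mice each), on the right TG minus WT with its 95% interval (limma). The 3 Il1b features and both Il1rn features lay below 0 with an adjusted p under 0.05, and the dim second Osm feature had an interval that held 0.

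Osm encodes oncostatin M, a gp130 cytokine released mainly by myeloid and T cells. Its brightest feature was at 7.82, 6.96, 8.17 and 8.42 in WT females and at 8.02, 8.10, 6.40 and 7.89 in WT males. It was at 6.44, 6.52, 7.87 and 6.39 in TG females and at 7.14, 5.88, 4.97 and 4.70 in TG males. The lowest 3 values of the study were those of TG males. TG females 1, 2 and 3 and TG male 1 lay within the WT range, and WT male 3 lay amid the TG females. The difference was -1.48 ± 0.38 (SE, adjusted p = 0.0198, limma), -1.04 in females and -1.93 in males. Neither sex passed on its own (adjusted p = 0.210 and 0.154, limma). In the exact Wilcoxon test the adjusted p was 0.0529. The second Osm feature was dim, with means of 2.91 (WT) and 2.58 (TG), and did not pass (adjusted p = 0.276, limma).

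Lif encodes leukemia inhibitory factor, which acts through LIFR and gp130, and was the member with the largest positive difference. WT females had 4.63, 2.62, 4.26 and 4.20 and TG females 8.62, 4.99, 5.12 and 7.49. WT males had 4.29, 4.48, 4.35 and 3.82 and TG males 4.46, 3.95, 4.63 and 4.68. All TG females were above every WT mouse, TG females 1 and 4 by far, and the males of the genotypes overlapped. In females Lif was higher by 2.63 ± 0.66 (SE, adjusted p = 0.0159, limma), in males the difference was 0.19 ± 0.66 (adjusted p = 0.959, limma). The effects differed by 2.44 (unadjusted p = 0.0190, adjusted p = 0.331, limma). The call in females was lost when females were fitted alone, and without WT female 2 or TG female 4. Over both sexes the difference was 1.41 ± 0.46 (SE, adjusted p = 0.0575, limma). Without TG females 1 and 4 and WT male 1 it was 0.67 (adjusted p = 0.180, limma). TG females 1 and 4 are the arrays that stood farthest from the others, as given below.

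Il6 itself did not pass. Its log2 value was 6.75, 5.74, 7.21 and 6.28 in WT females, 6.98, 7.25, 5.03 and 6.50 in WT males, 6.83, 4.19, 6.80 and 5.58 in TG females and 6.11, 5.13, 6.05 and 5.51 in TG males. The genotypes overlapped over most of their range. The difference was -0.69 ± 0.40 (SE, adjusted p = 0.285, limma), with a 95% interval from -1.55 to 0.17, and -0.65 in females and -0.74 in males. The other Il6 feature gave -0.90 (adjusted p = 0.174, limma).

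Il11, a gp130 cytokine studied in fibrosis, lay between 4.21 and 5.40 in WT lungs (median 5.14) and between 3.34 and 5.41 in TG lungs (median 4.18). TG females, at 3.34, 3.97, 4.79 and 3.87, held 3 of the 4 lowest values, and TG males overlapped the WT mice, with 1 below them all at 3.81 and 1 above them all at 5.41. The difference was -0.63 ± 0.27 (SE, adjusted p = 0.143, limma), -1.14 in females and -0.12 in males. The difference of these effects, -1.02, had an adjusted p of 0.437 (limma).

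Tnf, the ligand of the TNF receptors, lay between 4.21 and 5.55 in WT lungs (median 5.11) and between 2.79 and 5.40 in TG lungs (median 4.01). The lowest 4 mice were all TG, and TG male 3, at 5.40, was above all but 1 WT mouse. The difference was -0.95 ± 0.33 (SE, adjusted p = 0.0683, limma), -1.09 in females and -0.80 in males, and the other feature gave -0.99 (adjusted p = 0.0544, limma). The features differed by sex, since the other one gave -1.81 in females (adjusted p = 0.0164, limma) and -0.18 in males (adjusted p = 0.947, limma). On it the effects of the sexes differed by -1.63 (unadjusted p = 0.0208, adjusted p = 0.359, limma). With the mean of both features Tnf passed (adjusted p = 0.0101, limma).

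Il10 was dim, with a range of 2.10 to 3.58 in WT and of 2.46 to 4.61 in TG lungs and medians of 2.71 and 3.05. The groups overlapped. The difference was 0.52 ± 0.31 (SE, adjusted p = 0.299, limma).

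**Figure D3:**
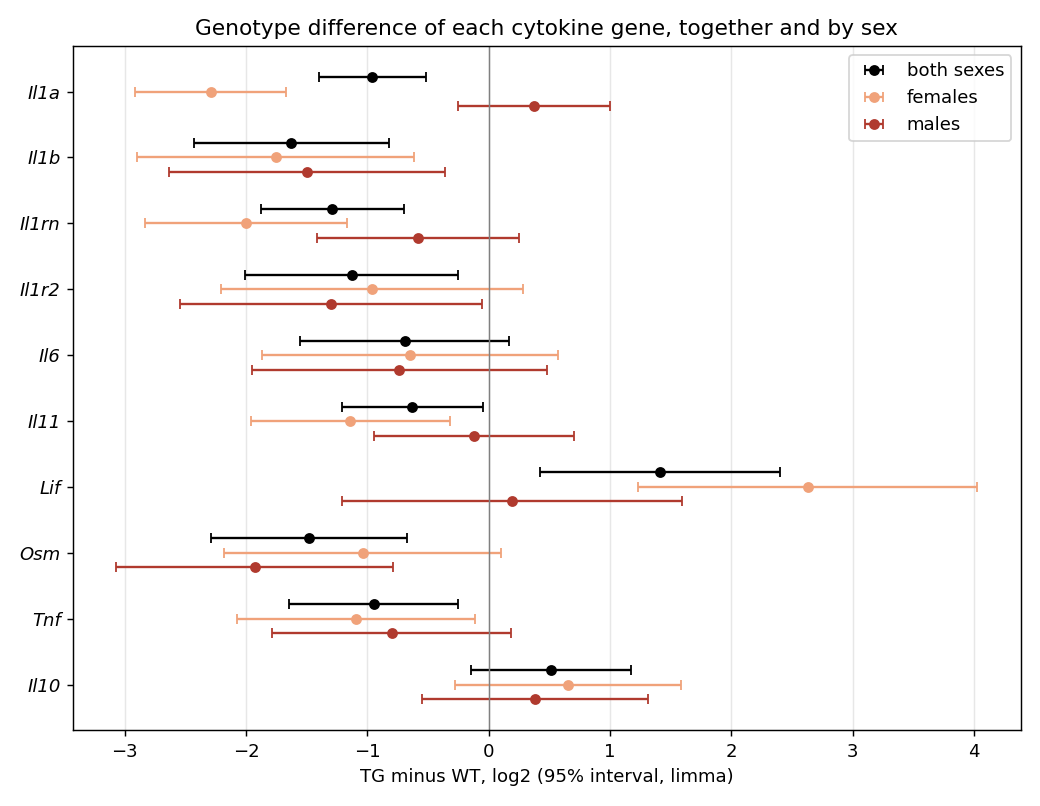
TG minus WT on the log2 scale (horizontal axis) with its 95% interval (limma) for each gene over both sexes, in females (4 against 4) and in males (4 against 4). The intervals of females and males did not meet for Il1a and met for the others.

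In females alone 3 members were lower, Il1a, Il1b and Il1rn, against 8.99% of all genes, and 1 was higher, Lif, against 7.13% of all genes (limma, adjusted over all genes). Fitted on females alone, 2 members passed, Il1a and Il1rn. In males 0 of the 10 were lower and 0 higher, against 0.337% and 0.309% of all genes. At an unadjusted p under 0.05, 3 members, Il1b, Il1r2 and Osm, were lower in males, against 5.49% of all genes. In females 5 were lower by that rule, Il1a, Il1b, Il1rn, Il11 and Tnf, against 17.2% of all genes. The genotype effect differed between the sexes at an adjusted p under 0.05 for 0 members and for 0% of all genes. At an unadjusted p under 0.05 it did so for 3 members, Il1a, Il1rn and Lif, and for 12.8% of all genes. TG females did not overlap WT females for these 3, as for 20.8% of all genes, and TG males did not overlap WT males for Il1b, as for 7.13% of all genes.

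Fitted feature by feature, 7 of the 17 features were lower, against 5.45% of all features, and 0 were higher, against 5.86% (limma). The 7 were those of Il1a, all of Il1b, both of Il1rn and the brighter one of Osm. The genes with several features pointed the same way in each of them.

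Correlations between arrays ranged from 0.953 to 0.990, and the lung epithelium markers (Sftpc, Sftpb, Sftpa1, Ager, Scgb1a1 and Foxj1) had a mean log2 value of 14.65 to 14.99 in every mouse. TG female 1, TG female 4 and WT male 1 stood apart from their genotype on the first principal component. Without them 2 members were lower, Il1a and Il1rn, against 5.54% of all genes, and 0 were higher, against 5.2% (limma). Il1b then had a difference of -1.11 (adjusted p = 0.0883, limma) and Osm of -1.22 (adjusted p = 0.120, limma), so that both kept their direction. Fosl2 had means of 9.55 (WT) and 9.40 (TG) on its brighter feature, and of 3.40 and 8.17 on its dimmer one, where all TG mice were above all WT mice.

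TG female 3 was the highest TG mouse for Il1b, Il1r2 and Osm, and WT female 3 the highest WT mouse for Il1b, Il1rn and Il1r2. TG female 1 had the lowest TG value of Il1a, Il1b, Il1rn and Il11 and the highest of Il6 and Lif. TG female 3 was also the highest of all mice in neutrophil markers, with a mean log2 value over 10 genes of 10.30. The other TG mice lay between 8.26 and 9.43, and the WT mice between 9.41 and 10.09. Other mice did not follow these markers in all 3 genes. WT female 2, at 10.09, had 9.84 for Il1b, 6.78 for Il1r2 and 6.96 for Osm. TG male 1, at 8.26, had the highest Il1b (9.05) and Osm (7.14) of the TG males, but the lowest Il1r2 (5.52). TG female 1, at 9.43, had the lowest Il1b of all mice, 7.60. TG female 3 was the highest TG mouse in the markers of other cells as well, namely monocytes and interstitial macrophages (9.86), B cells (8.16) and mast cells and basophils (5.20).

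For the marker counts that follow, the share over all genes was 7.08% lower and 6.05% higher. Of the 10 neutrophil markers 4 were lower in TG lungs, S100a8 (-1.45 on the log2 scale), S100a9 (-1.11), Retnlg (-1.78) and Mmp8 (-1.03). Csf3r, the receptor of the neutrophil growth factor G-CSF, was higher by 0.49, and Ly6g, Cxcr2, Ngp, Camp and Ltf did not pass. Among alveolar macrophage markers 3 of 9 were lower, Marco (-2.67), Siglecf (-1.23) and Plet1 (-0.45), and their mean was 10.17 to 11.09 in WT against 9.83 to 10.58 in TG lungs. Of 9 markers of monocytes and interstitial macrophages, 2 were lower, Csf1r and Fcgr4, with means of 9.70 to 10.11 in WT against 9.17 to 9.86 in TG lungs. NK cell markers were lower in 5 of 6, with means of 7.11 to 8.11 in WT against 4.04 to 5.11 in TG lungs. The part of these cells in the cytokine values was not tested.

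**Figure D4:**
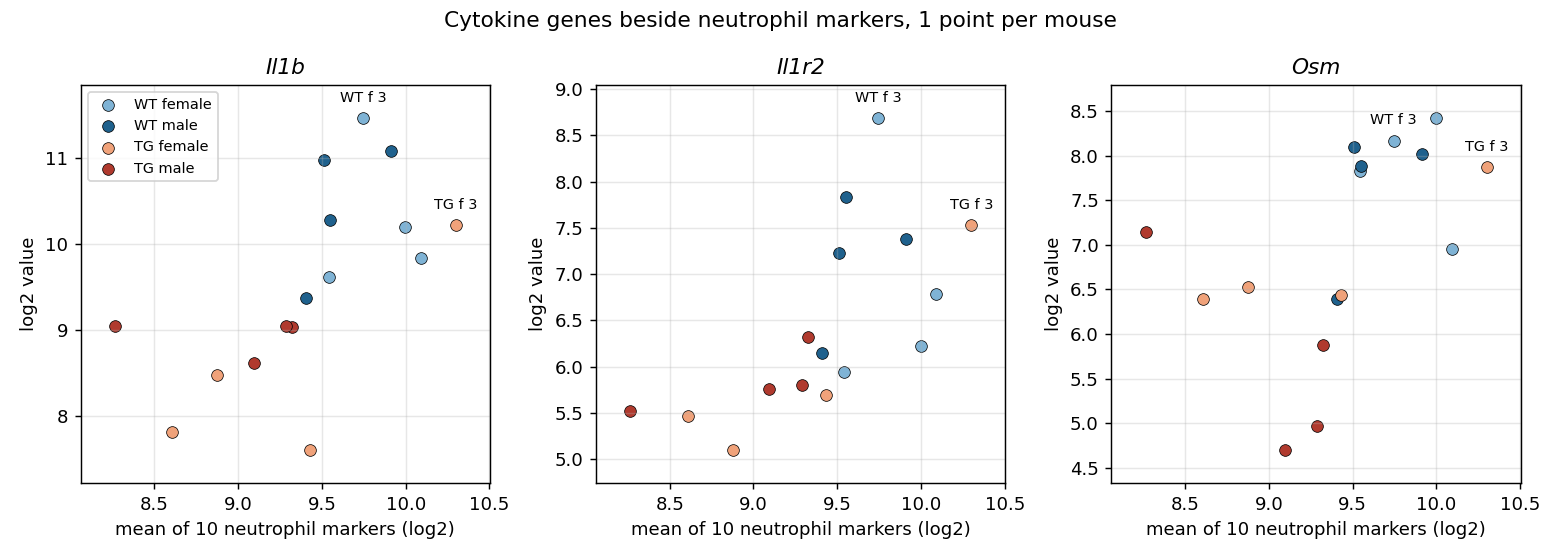
Log2 value of Il1b, Il1r2 and Osm (vertical axes) against the mean log2 value of 10 neutrophil markers (horizontal axis), 1 point per mouse, coloured by genotype and sex. TG female 3 had the highest marker mean, 10.30, and the highest TG value of all 3 genes. WT female 3 had a marker mean of 9.75. TG male 1 had the lowest marker mean, 8.26, with the highest Il1b and Osm but the lowest Il1r2 of the TG males.

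For mast cells and basophils, 3 of 7 markers were lower (Cpa3, Cma1 and Ms4a2) and Tpsb2 was higher, and of eosinophils 1 of 6 was lower. Of T cell markers 1 of 6 was lower, of B cell markers 2 of 5, and of fibroblast markers 1 of 6 was lower and 1, Col1a2, higher. None of the 6 epithelial markers passed.

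Of 25 measured genes of IL-1 family signalling, 6 were lower and 2 higher, with a median difference of -0.27. For this list and those below, the share over all genes was 7.08% lower and 6.05% higher. Il18rap, a chain of the IL-18 receptor, fell by 1.46 from 5.66 to 4.21, and Casp1, the protease that activates IL-1β and IL-18, fell by 0.72 from 9.30 to 8.58. Both lay below every WT mouse in all TG mice. Il18bp, which neutralizes IL-18, Il18 itself, the receptor chain Il18r1 and the adaptor Myd88 were lower too, with differences of -0.81, -0.75, -0.42 and -0.44. Sigirr, an inhibitory receptor of the family, rose from 9.53 to 9.95, and all TG mice were above all WT mice. The kinase gene Irak2 rose by 0.69, with differences of 1.14 in females and 0.24 in males. Il1r1 and Il1rap, the chains of the receptor for the IL-1 ligands, did not pass. Their differences were -0.27 and -0.20 (adjusted p = 0.214 and 0.185, limma).

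Of 20 measured genes of IL-6 family signalling, 1 was lower and 1 higher, with a median of -0.09. Ebi3, a subunit that IL-27 and IL-35 share, fell by 1.26 from 8.53 to 7.28 (adjusted p = 0.000152, limma), with all TG mice below all WT mice. Il11ra1, the IL-11 receptor, rose by 0.50 (adjusted p = 0.0415, limma), with differences of 0.94 in females and 0.06 in males. The receptor genes Il6ra (0.24), Il6st (-0.14), Lifr (0.05) and Osmr (-0.08) did not pass, and neither did Stat3 (0.38, adjusted p = 0.0682, limma) or its feedback inhibitor Socs3 (-0.28).

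Of 20 genes of TNF signalling 1 was lower, Birc3, a ubiquitin ligase of the TNF receptor complex (-0.84), and none was higher. Tnfrsf1a and Tnfrsf1b, which encode the TNF receptors, had differences of -0.0034 and -0.23 and did not pass. Of 11 measured genes of IL-10 family signalling, Il10ra was lower (-0.58, adjusted p = 0.0201, limma) and Il10rb did not pass. Il22ra1, an epithelial IL-22 receptor chain, was higher (1.85, adjusted p = 0.00938, limma). Il10ra differed by -0.07 in females and -1.08 in males, and Il22ra1 by 2.89 in females and 0.80 in males. The effects of the sexes did not differ for either gene at an adjusted p under 0.05 (limma).

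**Figure D5:**
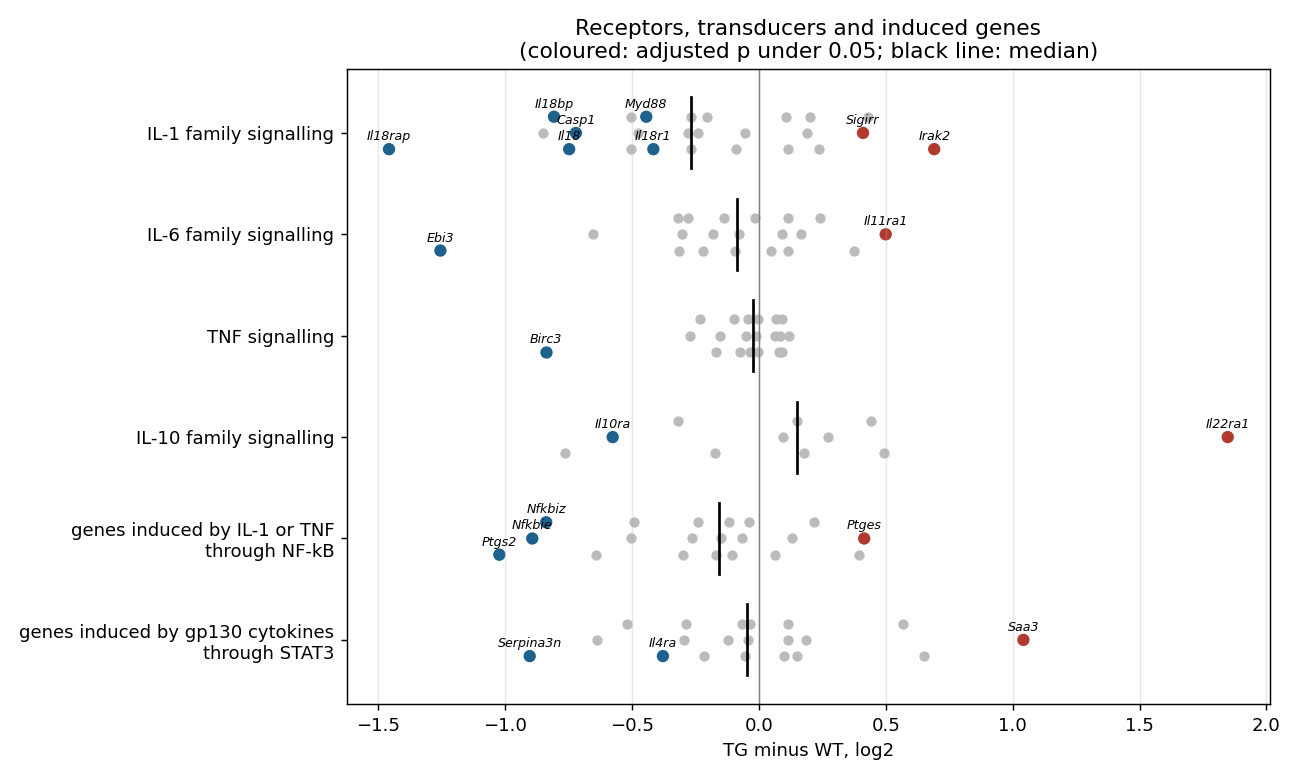
TG minus WT on the log2 scale (horizontal axis) of the 116 measured genes of 6 lists of receptors, transducers and induced genes (rows); genes with an adjusted p under 0.05 (limma) are coloured and named, and the black line is the median of the list. In all, 6 genes were higher, 14 lower and 96 did not pass; over all genes 6.05% were higher and 7.08% lower.

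Genes that IL-1 or TNF induce through NF-κB were lower in 3 of 20 and higher in 1, against 7.08% and 6.05% of all genes. Nfkbie, an NF-κB inhibitor, fell by 0.89 with all TG mice below all WT mice, Ptgs2, the inducible cyclooxygenase, by 1.02 and Nfkbiz, a nuclear cofactor of NF-κB, by 0.84. Ptges, which makes prostaglandin E, was higher by 0.41, with differences of 0.73 in females and 0.10 in males. Genes that gp130 cytokines induce through STAT3 were lower in 2 of 20, Serpina3n (-0.90) and Il4ra (-0.38). Of these 20 genes 1 was higher, Saa3, an acute phase protein (1.04), with differences of 1.59 in females and 0.49 in males. Over the 116 measured genes of the 6 lists the median was -0.08.

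For the 4 members that passed, the genes most alike over the 16 mice were ranked by the root mean square difference of their centred log2 values. The 3 most like Il1b were Clec4d and Clec4e, C-type lectin receptors of myeloid cells, and Apold1, with differences of 0.52, 0.53 and 0.54. Il1r2 ranked 5 of 24305 genes for Il1b, Il1rn ranked 38, Osm 311 and Il1a 2587. For Il1rn the 3 were Dusp19, Tlr7 and Tlr6, of which the latter pair are receptors for microbial RNA and lipopeptides (0.28, 0.34 and 0.37). Il1a was at rank 248 for Il1rn, Il1b at 1309 and Osm at 19027. For Il1a the 3 were Fabp5, a fatty acid binding protein, D10Wsu102e and Tex15 (0.45, 0.47 and 0.47). Il1rn was at rank 50 for Il1a, Il1b at 9297 and Osm at 22400. For Osm the nearest genes were less alike, at 0.70 for Nfkbid, 0.71 for Egr2 and 0.72 for Nlrc5. Il1b was at rank 32 for Osm, Il1rn at 9272 and Il1a at 20229. The 3 nearest genes of each passed with lower values in TG lungs, and likeness here includes the genotype difference itself.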

How the data were processed

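Lung RNA of 16 mice was measured on single-colour arrays. The authors corrected the intensities for background, quantile normalized them with limma and deposited log2 values, 1 per feature and array. The background method was not stated, and spot flags and signal over background were not used here. The SE of each gene came from its spread between arrays, moderated by limma, and from the number of arrays. Symbols came from the platform annotation, updated through accessions and synonyms in RefSeq; 19035 of 62976 features had none and were left out. The feature with the highest mean stood for each gene. Groups, sex and replicate numbers came from the labels, which call the samples biological replicates, and no values were left out.

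limma 3.58.1 in R 4.3.3 was fitted with 4 group means. The contrasts were TG minus WT over both sexes, in each sex, and the difference of these effects, with Benjamini-Hochberg adjustment over all 24306 genes, or over 43941 features where said. The threshold for a call was an adjusted p of 0.05. The test was checked on simulated data with independent normal noise and, for each gene, the same SD in all groups. That check does not cover arrays that deviate as a whole or a wider spread in TG females. The members, the signalling and marker lists and the tests were chosen with earlier results of these data known. Named were the members, the list genes that passed, the receptors of the members, and for members that passed the 3 most alike genes. Some genes of these lists are not reported here. Osm and Il10 had no promoter window. The alternatives tried were a replicate block, the genotype alone, the mean of all features, leaving out the dimmest 50% of genes, cyclic loess, eBayes with trend and robust, array weights, the exact Wilcoxon test, thresholds of 0.01 and 0.1, each sex fitted alone, leaving out the 3 arrays that stood apart, and leaving out each mouse in turn. Python 3.11.15 with matplotlib 3.10.9 served for the figures.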

Additional observations from a re-analysis of the deposited data

Results flagged for a closer look

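Each of 208 groups of 4 or of 8 mice was screened for a highest or lowest mouse far from the rest, of which 16 were found, and chance alone gives about 1 in 20. Among the members, WT female 2 was the highest WT female for Il10 at 3.58, TG male 4 the lowest TG male for Il1b at 8.61, and WT female 2 the lowest WT mouse for Lif at 2.62. WT male 3 was the lowest WT male for Osm at 6.40 and TG female 3 the highest TG female at 7.87, and on the dim Osm feature WT female 2 was lowest of the WT mice at 1.95.

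WT male 1, which also stood apart over all genes, was lowest of the WT mice for Cd8a (5.20), Il6st (10.89) and Serpina3n (6.72) and highest for Il11ra1 (12.93) and Ptges (13.34). WT female 3 was highest for Clec4e (7.71) and lowest for Sigirr (9.33), and WT female 4 lowest for Csf1r (12.32). TG female 1 was lowest of the TG mice for Csf1r (11.97) and Lifr (10.44).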

How the results depend on the processing

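No member changed sign in any setting that compared the genotypes over both sexes. In males alone the Il1a difference was 0.38, against -0.96 over both sexes. The count of lower members, 4 as reported, was 3 with the genotype alone (Il1a lost), 2 by the exact Wilcoxon test (Il1b and Il1rn), and 2 without the 3 arrays that stood apart or at an adjusted p under 0.01 (Il1a and Il1rn). It was 4 to 5 when 1 mouse was left out, the added gene being Tnf or Il1r2. Higher members numbered 1 (Lif) against 0 with the replicate block, with trend and robust, and at an adjusted p under 0.1, and 0 to 1 without 1 mouse, Lif passing without TG female 2 or 3. Same-numbered mice did not deviate together, and the block changed no other count. In females 2 members, Il1a and Il1rn, passed against 4 when females were fitted alone, and 2 to 5 without 1 mouse, the lowest without WT female 2 or TG female 4. In males 0 passed in every setting run. Of the signalling genes 6 were higher, but 2 with the genotype alone, 3 by the Wilcoxon test, 2 at 0.01, 10 at 0.1, and 2 to 9 without 1 mouse, with 2 or 3 left without WT females 2, 3 or 4, WT males 2 or 3, TG females 1 or 4, or TG males 1 or 3. The 14 lower ones became 9 without the 3 arrays and 7 at 0.01, and 11 to 17 without 1 mouse. The cause was not tested. Tnf passed without TG female 2 or TG male 3, with trend and robust and with the mean of its features, and Il1r2 without TG female 3 and without the dimmest 50% of genes, a filter that leaves out Il1a, Il6, Il11, Lif, Tnf and Il10. Without signal over background, dim values cannot show whether a transcript was present.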
